A study of Mus musculus with 5 samples.

Results

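The genes followed here encode the surface and storage molecules by which endothelium captures leukocytes: Selp, Sele, Vcam1, Icam1, Icam2, Vwf, Ackr1, Cd34 and Jam2. They were taken by symbol as a fixed list of 9 genes of the 32285 in each count matrix. The list was proposed with earlier results of these data known, so its counts are descriptions. The data were single-nuclei RNA sequencing (snRNAseq) of mouse interscapular brown adipose tissue (iBAT), in 2 matrices of unique molecular identifiers (UMIs, one per captured RNA molecule). One matrix pools 2 libraries from 3-month-old littermates, a WT control and a Ucp1-STX4KO, in which Cre driven by the Ucp1 promoter of brown adipocytes deletes floxed Syntaxin 4 (Ucp1-Cre+/- STX4 fl/fl; the controls carried Ucp1-Cre+/- or STX4 fl/fl only). The other pools 3 libraries from C57BL/6J mice of 2, 12 and 24 months, called the aging matrix here. All mice were male and on the C57BL/6J background, the methods do not divide the animals among the libraries, and the homogenization before nuclear sorting was tuned to enrich brown adipocyte nuclei. There was 1 library per condition, and the barcode suffix that separates the libraries inside each matrix is not tied to a genotype or an age by any label. No comparison between genotypes or ages was therefore made, and values are given by suffix.

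Leukocytes leave the blood in steps. P-selectin (Selp) and E-selectin (Sele) slow passing cells into rolling, and the immunoglobulin-family ligands VCAM1, ICAM1 and ICAM2 then hold them through integrins. P-selectin and von Willebrand factor (Vwf) are stored together in the Weibel-Palade granules of endothelial cells, ACKR1 is a chemokine-binding receptor of venules, CD34 is a sialomucin of endothelium and of stromal progenitors, and JAM2 is a junction protein over which leukocytes migrate.

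The WT and Ucp1-STX4KO matrix held 11201 and 9106 barcodes with 76195924 and 39857819 UMIs for suffixes 1 and 2. The aging matrix held 10000 barcodes for each suffix, with 14486189, 19278264 and 20891602 UMIs for suffixes 1, 2 and 3. The 2 libraries of the first matrix shared 23 barcode sequences, and those of the aging matrix shared 28 (suffixes 1 and 2), 45 (1 and 3) and 28 (2 and 3). Suffix 1 of the first matrix stood apart in depth, with no barcode under 2053 UMIs, whereas the lowest barcode of suffix 2 had 424. Suffix 1 of the aging matrix was the shallowest, with a median of 891 UMIs per barcode against 1635 and 1720 for suffixes 2 and 3. Although the labels name the material brown adipocytes, endothelial-like nuclei made up 17261 of the 27842 nuclei kept in the aging matrix (62.0%), and adipocyte-like nuclei 2773. In the first matrix 663 of 20307 nuclei were endothelial-like (3.26%) and 14421 were adipocyte-like. By suffix the endothelial share was 39.1, 65.35 and 76.6% in the aging matrix and 1.07 and 5.96% in the first. The endothelial nuclei of the aging matrix had medians of 669, 1632 and 1649 UMIs in suffixes 1, 2 and 3, so suffixes 2 and 3 weigh most in its pooled endothelial levels. All 10 endothelial markers (Pecam1, Cdh5, Flt1 and others outside the adhesion list) were raised in each endothelial cluster.

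Endothelial nuclei were gated one by one by markers outside the adhesion list. In the aging matrix the gates held 7623 capillary, 2244 arterial, 1452 venous and 3344 interferon nuclei, together with 64 lymphatic ones and 2534 that met no gate. In the first matrix they held 260, 68, 76 and 64, with 14 lymphatic and 181 ungated nuclei. Of the venous nuclei of the aging matrix, 613 entered at the minimum of 2 marker UMIs. Levels are UMIs per 1000000 UMIs of the group (CPM) with exact Poisson 95% intervals, which cover counting error only and treat UMIs of 1 nucleus as independent. A gene was called higher or lower where its CPM ratio was at least 2, or at most 0.5, with an exact 95% interval that left out 1, given at least 10 UMIs over both groups. With 1 library per condition these calls are descriptions and carry no p-value.

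In the aging matrix 6 of the 9 genes were higher in venous than in capillary nuclei and none was lower, against 4.81% of 16127 tested genes called higher and 0.694% called lower. The 6 were both selectins, Vcam1, Icam1, Vwf and Ackr1, and Icam2, Cd34 and Jam2 stayed under the 2-fold limit. All 9 genes passed the UMI minimum, and their median ratio was 11.7, compared to 1.03 over all genes tested. The same 6 genes were called in each of the 3 libraries taken alone, where the share of all genes called is not given.

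Selp displayed 274, 140 and 1028 CPM in the venous nuclei of suffixes 1, 2 and 3, and 6.03, 3.75 and 44.3 CPM in their capillary nuclei. The lowest venous library lay above the highest capillary one. Pooled, the levels were 607 CPM (interval 582 to 633) and 25.5 CPM (22.8 to 28.4), a ratio of 23.8 (21.2 to 26.8) that rose to 43.1 without suffix 3. Sele, the selectin made on cytokine stimulation in textbook endothelium, reached 56.7, 43.3 and 277 CPM in venous nuclei and 2.01, 1.18 and 9.74 CPM in capillary nuclei. Its ratio was 28.1 (22.1 to 36.2). For both selectins suffix 3 was the highest library in either gate.

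Sele and Selp both lie on chromosome 1 of GRCm38, at chr1:164048234-164057677 (ENSMUSG00000026582) and chr1:164115264-164150026 (ENSMUSG00000026580) on the plus strand. Upstream sequence from RefSeq (GRCm38.p6) was at hand for 5 of the 9 genes, Selp, Sele, Icam1, Ackr1 and Cd34. It was searched in the 250 bases before each start for GGNNNTTCC, the letters of an NF-kB type site, on both strands. Of the 5, all but Cd34 held a match, compared to 15.7% of 32851 promoters of the same length. The 3 windows below belong to the selectins and to Icam1, which were called higher in venous than in capillary nuclei of the aging matrix, and capitals mark the matched letters. A match describes letters only, and no binding was measured.
Selp, chr1:164115014-164115263, plus strand: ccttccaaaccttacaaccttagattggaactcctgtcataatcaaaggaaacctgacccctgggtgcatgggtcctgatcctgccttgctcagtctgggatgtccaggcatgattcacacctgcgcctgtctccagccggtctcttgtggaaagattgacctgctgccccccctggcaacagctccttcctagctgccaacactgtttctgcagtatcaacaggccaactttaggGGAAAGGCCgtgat
Sele, chr1:164047984-164048233, plus strand: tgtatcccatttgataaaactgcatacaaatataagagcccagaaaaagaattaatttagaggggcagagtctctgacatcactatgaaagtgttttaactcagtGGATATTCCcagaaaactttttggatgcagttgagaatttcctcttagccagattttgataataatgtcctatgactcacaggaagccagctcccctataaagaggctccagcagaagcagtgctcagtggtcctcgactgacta
Icam1, chr9:21015690-21015939, plus strand: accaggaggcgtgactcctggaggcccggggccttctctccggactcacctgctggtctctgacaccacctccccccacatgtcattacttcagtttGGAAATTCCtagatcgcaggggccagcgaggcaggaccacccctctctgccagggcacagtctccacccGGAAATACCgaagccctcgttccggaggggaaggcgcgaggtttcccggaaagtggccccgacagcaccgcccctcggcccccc
In Selp the match began 14 bases before the start, in Sele 145 bases and in Icam1 153 bases before it, where the letters match on both strands, with a further match nearer to the start.

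Vcam1 (ENSMUSG00000027962, chr3:116109949-116129688, minus strand), the ligand of the integrin VLA-4 on lymphocytes and monocytes, showed 176, 104 and 187 CPM in venous nuclei of suffixes 1 to 3 and 9.04, 7.90 and 11.2 CPM in capillary nuclei. The venous and capillary libraries did not overlap, and the pooled ratio was 15.99 (13.2 to 19.6). Icam1 (ENSMUSG00000037405, chr9:21015985-21028817, plus strand), the ligand of leukocyte beta-2 integrins, showed 74.3, 75.0 and 162 CPM in venous nuclei and 27.1, 21.1 and 61.9 CPM in capillary nuclei. Its ratio was the smallest of the 6 called, 2.74 (2.41 to 3.11). Icam2 (ENSMUSG00000001029, chr11:106377656-106388075, minus strand), the ICAM that resting endothelium carries throughout, had 43.0, 39.4 and 43.0 CPM in venous nuclei against 30.1, 29.6 and 42.0 CPM in capillary nuclei. The pooled ratio was 1.15 (0.953 to 1.39), so any difference was under the 2-fold limit over the whole interval.

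Vwf (ENSMUSG00000001930, chr6:125546774-125686679, plus strand) varied least across libraries of the 6 called genes, with 256, 234 and 230 CPM in venous nuclei. Its capillary levels were 4.02, 11.8 and 17.1 CPM, and the pooled ratio was 16.7 (14.2 to 19.7). Selp shares its granule with Vwf, yet its venous level spanned 140 to 1028 CPM over the same libraries. Ackr1 (ENSMUSG00000037872, chr1:173331886-173333750, minus strand) was sparse, with 56 UMIs in all venous nuclei, and measured 21.5, 11.6 and 16.3 CPM there against 0, 0.592 and 2.03 CPM in capillary nuclei. Its pooled ratio was 11.7 (6.70 to 21.5), which rose to 29.1 without suffix 3 and fell to 2.01, no longer called, among nuclei without marker UMIs of other types.

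Cd34 (ENSMUSG00000016494, chr1:194938819-194961279, plus strand) was 95.8, 104 and 87.1 CPM in venous nuclei and 53.2, 60.2 and 49.99 CPM in capillary nuclei, higher in all 3 libraries but below 2-fold (ratio 1.74, 1.53 to 1.98). Jam2 (ENSMUSG00000053062, chr16:84774123-84825928, plus strand) had 473, 554 and 524 CPM in venous and 441, 423 and 488 CPM in capillary nuclei. Its ratio was 1.15 (1.09 to 1.21), under the 2-fold limit in all 3 libraries.

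**Figure D1:**
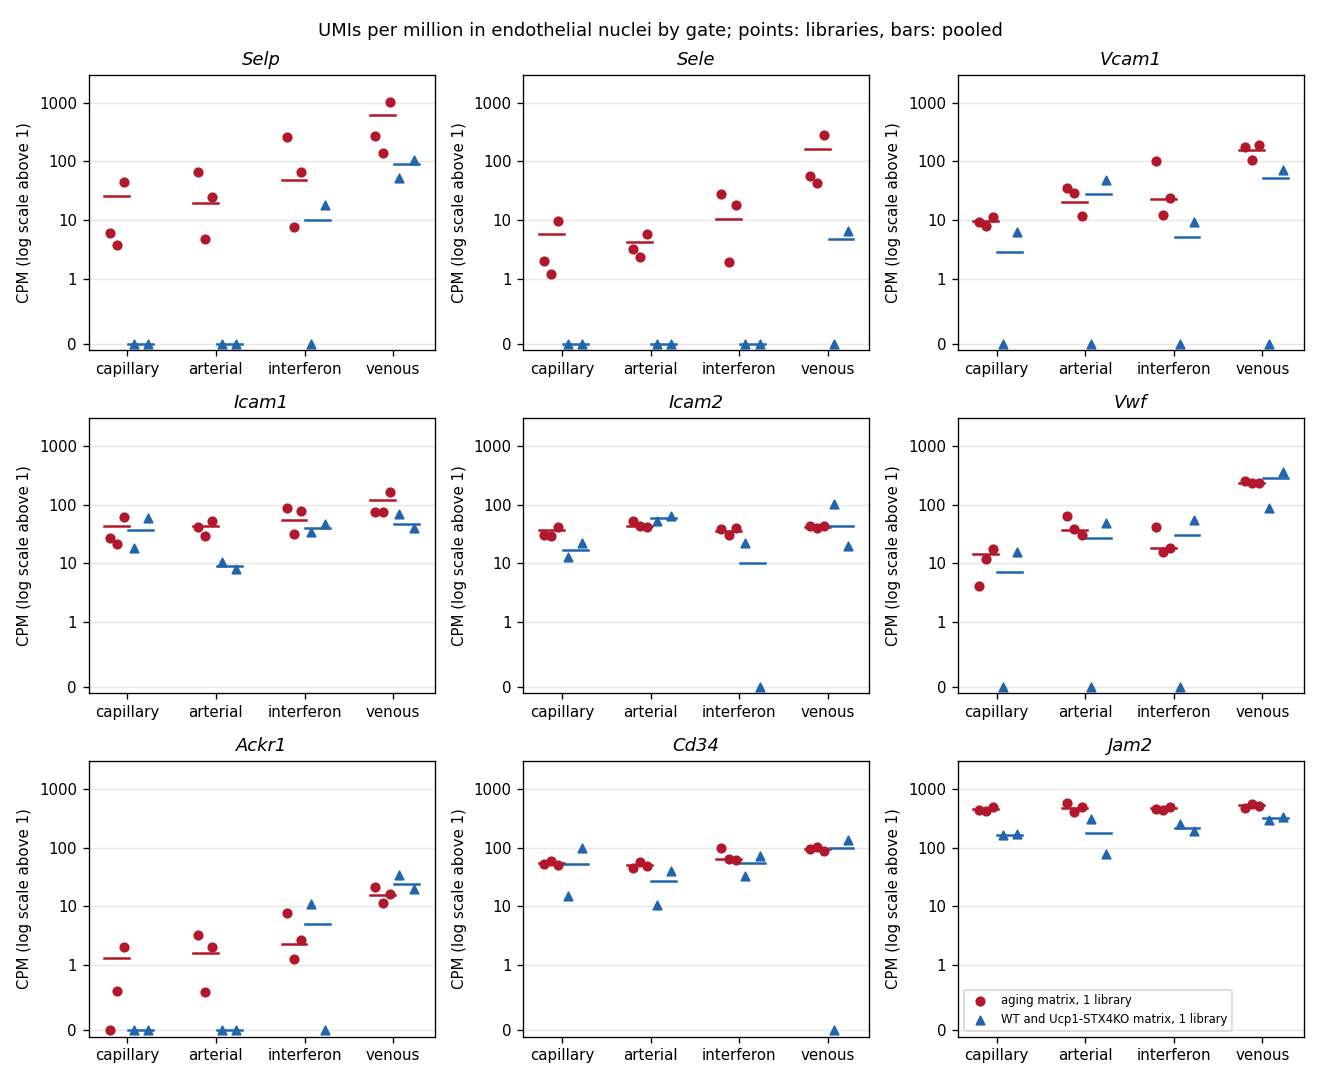
CPM of each adhesion gene in capillary, arterial, interferon and venous nuclei, with 1 point per library (red circles, 3 libraries of the aging matrix; blue triangles, 2 libraries from WT and Ucp1-STX4KO mice) and a bar for the pooled level; the axis is logarithmic above 1 CPM. In the aging matrix the pooled Selp, Sele, Vcam1, Vwf and Ackr1 stand highest in venous nuclei, while Jam2 and Icam2 lie at like levels in the 4 gates.

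The WT and Ucp1-STX4KO matrix, with only 76 venous nuclei, gave 3 calls in the venous against capillary comparison, Selp, Vcam1 and Vwf, with 4.13% of 9273 tested genes called higher and 2.63% called lower. Only Vwf was called in the stated UMI and gene range and among nuclei without marker UMIs of other types, and none of the 3 in suffix 1 alone. The UMI minimum was met by 7 of the 9 genes, and Sele and Ackr1 fell short of it. Vwf had 86.5 and 359 CPM in venous nuclei of suffixes 1 and 2 and 0 and 15.5 CPM in capillary nuclei, and its pooled ratio was 40.8 (16.5 to 130). The 60 venous Vwf UMIs came from 24 nuclei. Selp had 51.9 and 104 CPM in venous nuclei and 0 UMIs in all 260 capillary nuclei, where a set floor of 3 UMIs stands for 4.19 CPM. Against that floor the ratio of venous nuclei was 21.5, and the exact lower limit of the ratio was 15.9. The 19 venous Selp UMIs lay in 5 nuclei. Of all endothelial UMIs of this matrix, 22 of 24 for Selp and 74 of 91 for Vwf lay in 1 sub-cluster of 51 nuclei whose leading genes include the lymphatic Mmrn1, Reln and Ccl21a. Vcam1 had 0 and 71.8 CPM in venous nuclei and 0 and 6.18 CPM in capillary nuclei, a ratio of 18.7 (4.08 to 174) that rested on suffix 2 and was 1.91, not called, in the stated range.

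Sele was nearly absent from these 3-month-old endothelial nuclei, with 1 UMI among 1601212. Ackr1 gave 5 UMIs in venous and 0 in capillary nuclei. Icam1 (47.4 against 36.3 CPM), Icam2 (42.7 against 16.7 CPM), Cd34 (99.6 against 53.0 CPM) and Jam2 (327 against 167 CPM) were not called, with ratios of 1.31 (0.562 to 2.80), 2.55 (0.948 to 6.59), 1.88 (1.05 to 3.28) and 1.95 (1.43 to 2.65). Jam2 was higher in the venous nuclei of both libraries, with 294 and 340 CPM against 165 and 170 CPM. Capillary sub-cluster 0 of this matrix, however, had 307 CPM of Jam2, near the 327 CPM of the venous gate.

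Arterial nuclei of the aging matrix displayed 2 genes above capillary nuclei, Vcam1 and Vwf, and none below, against 2.74% of 16257 genes called higher and 0.547% called lower. Vwf was 64.7, 38.8 and 30.7 CPM in arterial nuclei of suffixes 1 to 3, above each capillary library, with a ratio of 2.57 (2.07 to 3.20), which was 1.79 in suffix 3 alone and 1.91 in the stated UMI and gene range, neither called, and 4.05 without suffix 3. Vcam1 was 35.6, 29.4 and 11.5 CPM, and its ratio of 2.05 (1.55 to 2.71) fell to 1.02 in suffix 3 alone. Among nuclei without marker UMIs of other types the arterial Vcam1 ratio turned to 0.465. The selectins were not called (ratios 0.775 for Selp, interval 0.605 to 0.983, and 0.736 for Sele, 0.420 to 1.23), but the libraries were at odds for Selp, whose arterial to capillary ratio was 10.7 in suffix 1 (64.7 against 6.03 CPM, 20 UMIs in 2 of 215 nuclei against 6 UMIs in 3 of 990) and 0.554 in suffix 3 (24.6 against 44.3 CPM). In the first matrix Icam2 was the only gene called higher in arterial nuclei (59.0 against 16.7 CPM, ratio 3.52, 1.48 to 8.44), and Icam1 was lower (2 UMIs, 9.07 against 36.3 CPM, interval of the ratio 0.0288 to 0.999), where 3.6% of 9266 genes were called higher and 1.93% lower. The Icam2 ratio was 0.971 among nuclei without marker UMIs of other types, and the call was also lost in the stated UMI and gene range, by sub-clusters and in either library alone. In arterial nuclei of the aging matrix Icam1 stood at 42.7 CPM against 43.3 CPM, a ratio of 0.986 (0.832 to 1.16). Sub-clusters of that matrix differed more, with Icam1 at 66.2 CPM in arterial sub-cluster 3 against 25.4 and 32.1 CPM in capillary sub-clusters 1 and 2. Unnamed sub-clusters 0 and 4 had 46.2 and 94.7 CPM of Icam1. In the same arterial and capillary sub-clusters Vwf was 71.7 against 7.44 and 8.13 CPM, and Vcam1 33.7 against 5.11 and 7.93 CPM.

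Interferon nuclei, gated by genes such as Ifit1, Iigp1 and Gbp4, had 1 called gene in the aging matrix, Vcam1, where 1.0% of 16591 genes were called higher and 0.368% lower. Vcam1 was 103, 12.3 and 23.6 CPM in suffixes 1 to 3, and its pooled ratio was 2.34 (1.83 to 3.00). Suffix 1 had the largest ratio (11.4), suffix 3 passed alone (2.11) and suffix 2 did not (1.56), and without suffix 1 no gene was called. More genes were called in suffix 1 alone, without suffix 2 or 3, under the stricter gate and by Mantel-Haenszel weights, as given at the end. By sub-clusters the direction turned, with a Vcam1 ratio of 0.681 (4.28 CPM in interferon sub-cluster 5, against 5.11 and 7.93 CPM in capillary sub-clusters 1 and 2). Suffix 1 also held the highest interferon-gate Selp, 260 CPM, compared to 7.58 and 65.7 CPM in suffixes 2 and 3. Its 101 UMIs lay in 14 of 308 nuclei. Of all 3344 interferon-gated nuclei 216 fell in venous sub-clusters, and the interferon sub-cluster itself had 6.96 CPM of Selp (13 UMIs). Vwf alone was called there in the first matrix (6 against 5 UMIs, ratio 4.33, 1.10 to 17.9), beside 2.58% of 9176 genes called higher and 2.06% lower. That ratio was 0 in the stated range, and no gene was called among nuclei without marker UMIs of other types, under the stricter gate, in either library alone or by mean CPM per nucleus.

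**Figure D2:**
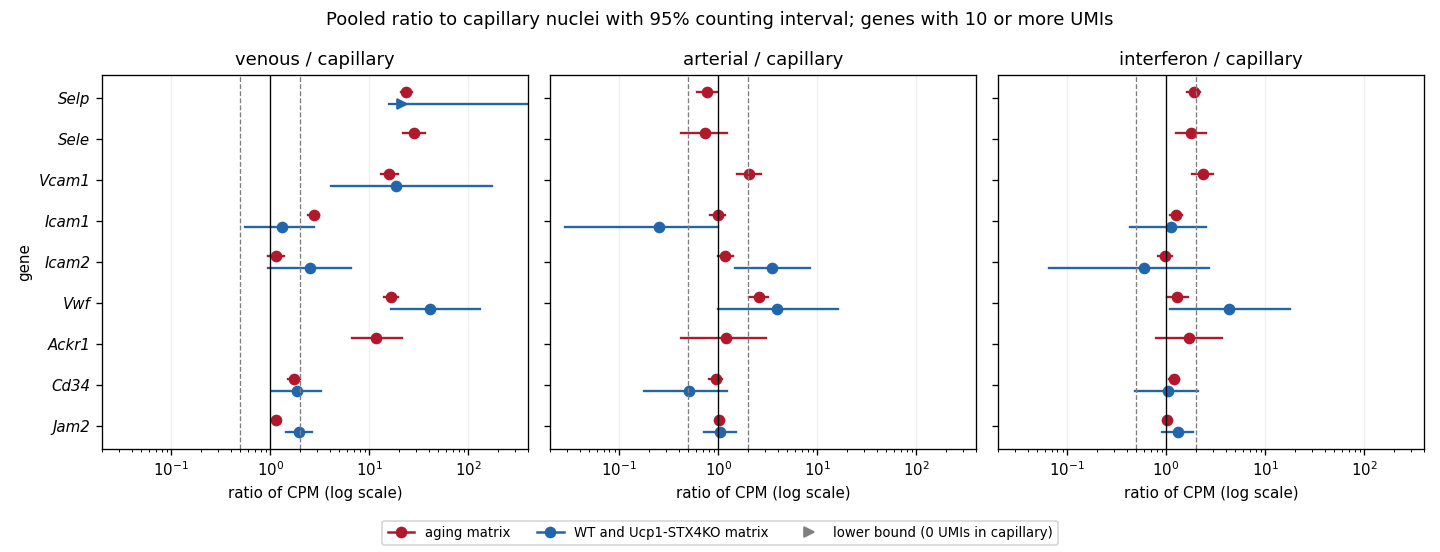
Pooled CPM ratio of venous, arterial and interferon nuclei to capillary nuclei for genes with at least 10 UMIs, on a logarithmic axis. Points are ratios, lines the 95% counting intervals, and dashed lines mark ratios of 0.5 and 2. The arrowhead, labeled a lower bound, is the ratio against a set floor of 3 UMIs where capillary nuclei had 0 UMIs. The venous ratios of Selp, Sele, Vcam1, Vwf and Ackr1 in the aging matrix exceed 10, and most arterial and interferon ratios lie between 0.5 and 2.

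The venous signal was uneven from nucleus to nucleus. A Selp UMI was found in 300 of the 1452 venous nuclei of the aging matrix (20.7%, median depth 2038 UMIs), compared to 192 of 7623 capillary nuclei (2.52%, median 1534) and 37 of 2773 adipocyte nuclei (1.33%, median 2100), which should lack the gene. In suffixes 1, 2 and 3 the share was 20.3, 12.4 and 26.5% of venous nuclei and 0.303, 0.414 and 4.74% of capillary nuclei. It was 0.758, 0.506 and 3.61% of adipocyte nuclei. Suffix 3 held 177 of the 192 capillary nuclei with a Selp UMI. Venous nuclei with a Selp UMI were somewhat deeper than those without (median 2328 against 1946 UMIs). They also displayed higher levels of several other adhesion genes, given here as a description since the nuclei were split by a measured gene. The split pools the libraries and was not made within each. Of the 300 nuclei with Selp, 197 lay in suffix 3, the library highest in both selectins, so library and nucleus differences are mixed. Sele was 617 CPM in nuclei with Selp and 18.8 CPM in nuclei without it, a ratio of 32.8 (24.6 to 44.5). Vcam1 was 496 against 47.8 CPM, Vwf 633 against 109 CPM and Ackr1 51.3 against 3.98 CPM. Icam1 differed less (249 against 77.4 CPM), and Jam2 was 612 against 501 CPM. Within the venous sub-clusters 6 and 8 (403 nuclei with and 1034 without a Selp UMI) the differences were smaller, with ratios of 18.9 (14.8 to 24.6) for Sele, 5.47 for Vcam1, 3.24 for Vwf and 5.71 for Ackr1, against 32.8, 10.4, 5.81 and 12.9 by gate. Nr2f2, a transcription factor of venous identity, and the interleukin-1 receptor gene Il1r1 are both markers of the venous gate, which shapes their levels in gated nuclei. Between the gated nuclei Nr2f2 had a ratio of 0.955 (0.825 to 1.10) and Il1r1 one of 3.98 (3.64 to 4.35). Within sub-clusters 6 and 8 the ratios were 1.10 (0.944 to 1.28) and 3.40 (3.10 to 3.72).

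Sub-clusters, computed with the adhesion genes withheld from the clustering features, showed the same unevenness. Of the 10 sub-clusters of the aging matrix, 2 were named venous, number 6 with 912 nuclei and number 8 with 525. Number 8 displayed 1952 CPM of Selp, 551 of Sele, 541 of Vcam1, 264 of Icam1, 750 of Vwf, 45.8 of Ackr1 and 170 of Cd34. In number 6 the same genes measured 162, 24.0, 50.6, 113, 47.9, 4.90 and 64.3 CPM. Both lay above the capillary sub-clusters 1 and 2, where Selp was 8.61 and 10.4 CPM, in Selp, Sele, Vcam1, Icam1, Vwf, Ackr1 and Cd34. Cd34 was 46.3 and 53.1 CPM in these capillary sub-clusters, so number 8 passed the 2-fold limit for it and number 6 did not. Number 6 was below arterial sub-cluster 3 in Vwf (71.7 CPM there) and below unnamed sub-cluster 4 in Cd34 (109 CPM there). Within number 8, Selp was 1507, 444 and 3269 CPM and Sele 292, 170 and 930 CPM in suffixes 1, 2 and 3, whereas Vwf was 986, 722 and 696 CPM. The libraries thus differed in the selectins inside a single venous sub-cluster too, and which condition each suffix stands for is not known here. Venous and lymphatic markers rose together in 1 sub-cluster of 51 nuclei of the first matrix, so that no venous sub-cluster could be named there. That sub-cluster, named lymphatic, held 30 of the 76 venous-gated nuclei. Flt4 (3 UMIs) was the one lymphatic marker found in those 76. The gates sort nuclei by these markers, so this count says nothing on which type the 30 nuclei are.

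**Figure D3:**
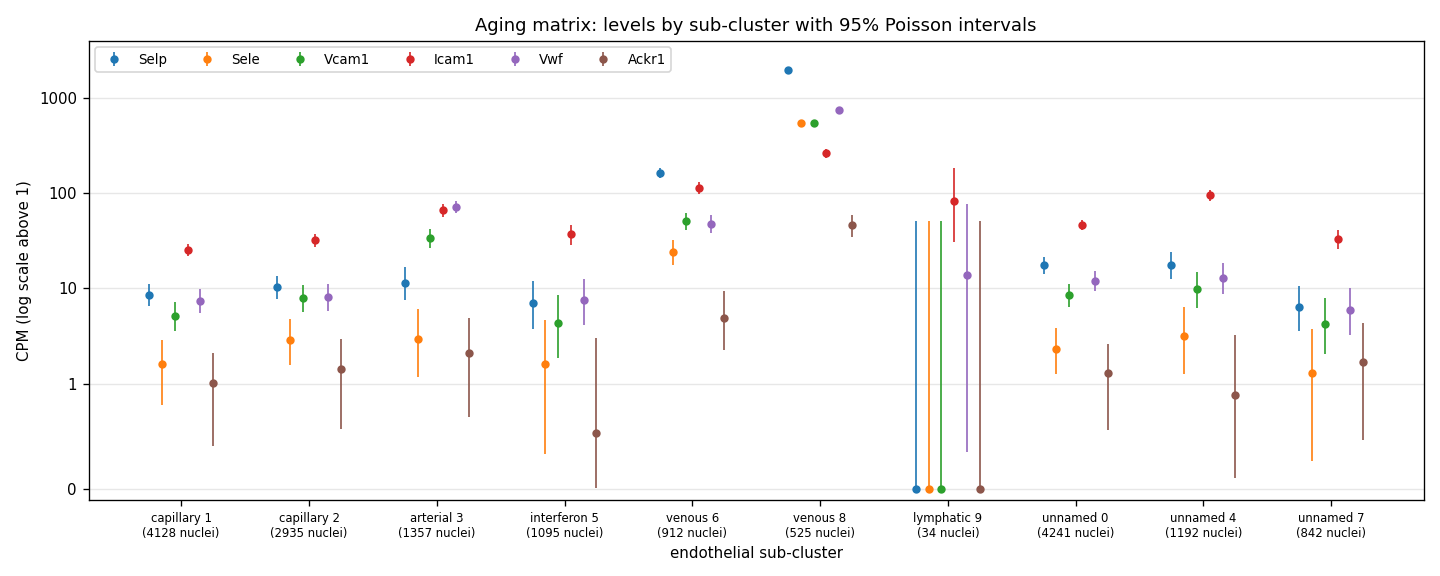
CPM of Selp, Sele, Vcam1, Icam1, Vwf and Ackr1 in the 10 endothelial sub-clusters of the aging matrix, pooled over libraries, with 95% Poisson intervals; the axis is logarithmic above 1 CPM and nuclei numbers stand under each sub-cluster. Venous sub-cluster 8 is the highest for each of the 6 genes, and venous sub-cluster 6 lies between it and the capillary sub-clusters.

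The other genes of the adhesion cascade were taken from 6 lists. Junction and transmigration genes were higher in venous than in capillary nuclei of the aging matrix for 3 of 12 tested (4.81% of all genes tested were), led by Plvap, the protein of fenestral and caveolar diaphragms, at 72.8 against 9.04 CPM (ratio 8.05, 6.45 to 10.1), with Alcam and Bst1. Of the storage granule genes 2 of 10 were higher, Rab27a, a GTPase of granule secretion (82.4 against 20.2 CPM), and Edn1, the endothelin-1 gene (30.8 against 14.4 CPM). Of the chemokine and cytokine genes 4 of 10 were higher, Il6 (17.9 against 0.850 CPM, ratio 21.0, 10.998 to 44.1), Csf1, Cxcl16 and Cxcl10. Most venous Il6 UMIs lay in suffix 3, as given below. Among NF-kB and cytokine sensing genes 2 of 15 were higher, the shared cytokine receptor subunit Il6st (407 against 102 CPM) and the TNF receptor gene Tnfrsf1b (38.4 against 14.2 CPM). St3gal4, a sialyltransferase, was the only one of 5 glycosylation genes called, and none of the 10 leukocyte ligand genes tested was. No gene of the 6 lists was lower. The median ratios of the lists lay between 1.05 and 1.91, beside 1.03 over all genes. In the first matrix Plvap (161 against 2.79 CPM), Rab27a (66.4 against 8.37 CPM), Il6st (332 against 97.7 CPM) and St3gal4 (166 against 75.3 CPM) were called higher as well, together with Itga4 and Nos3 (4.13% of all genes tested were called), and Il6 had 0 UMIs in both gates.

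In venous nuclei of the aging matrix, Il6 had the same order of libraries as the selectins, with 5.87, 1.55 and 32.7 CPM in suffixes 1, 2 and 3 (3, 2 and 60 UMIs). Il1r1 measured 555, 307 and 732 CPM there, and Nfkbia, an NF-kB inhibitor and target, 231, 148 and 214 CPM. Nr2f2, like Il1r1 a marker of the venous gate, measured 366, 257 and 301 CPM.

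The genes with the most similar pattern were sought by the Pearson correlation of log2(CPM + 5) over 42 groups of at least 50 nuclei, each a cell type or endothelial gate in 1 library, among 11203 genes. The groups share libraries and depth, so the values are descriptions. Selp was most like Vwf (r = 0.792), Rnd1 (0.776) and Pgm5 (0.755), and Sele was most like Rnd1 (0.828), Vwf (0.731) and Bmpr2 (0.694). For Vwf the nearest were Plvap (0.812), Pgm5 (0.796) and Csf2rb2 (0.788). For Vcam1 they were Man1c1 (0.732), Gas6 (0.699) and Lmo2 (0.695), and for Icam1 Ugcg (0.881), Apobec3 (0.874) and Il4ra (0.871). Icam2 was most like Pecam1 (0.953), Samd12 (0.951) and Ly6a (0.95), Jam2 like Cd300lg (0.971), Cdh5 (0.969) and Mmrn2 (0.968), and Cd34 like Card10 (0.918), Palm (0.913) and Thsd1 (0.901). Of the neighbors of Icam2 and Jam2, Pecam1 and Cdh5 were on the endothelial marker list. Ackr1, with 168 UMIs in both matrices, was too sparse.

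Compared to all other named nuclei, 8 of the 9 genes were higher in endothelial nuclei in each matrix, against a background of 8.7% of 20533 genes in the aging matrix and 10.7% of 19583 in the first (24.4% and 3.93% were lower). In the first matrix the count was 4 in the stated range, and Vcam1 there was not higher in suffix 1 (1.51 against 2.25 CPM, 1 UMI, ratio 0.672) or in the stated range (0.497). The exception was Ackr1 in the aging matrix (3.38 against 2.06 CPM, ratio 1.64, 1.15 to 2.37) and Sele in the first (1 against 43 UMIs, ratio 1.65, 0.0408 to 9.70). In suffix 2 of the aging matrix Vcam1 (24.4 against 14.8 CPM) and Cd34 (65.1 against 33.5 CPM) also stayed under the 2-fold limit. Selp in the first matrix had 24 UMIs in 663 endothelial nuclei and 3 UMIs in 19026 others (14.99 against 0.0264 CPM). Icam2 (25.0 against 0.246 CPM) and Jam2 (205 against 2.51 CPM) were likewise far lower outside endothelium.

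UMIs of endothelial markers were also seen in other nuclei, and their source was not tested. Each gene was therefore set beside the summed 10 endothelial markers. In the aging matrix this sum reached 22.1% of its endothelial level in adipocyte nuclei, 12.0% in mural, 14.1% in stromal, 27.5% in macrophage and 5.22% in Schwann nuclei. Jam2 stood at 23.0%, 11.8%, 17.7%, 24.7% and 6.18% of its endothelial level in the same types, close to the marker sum in each. Selp and Sele stayed below the marker sum in all 5 types. Conversely, only 4350 of the 17261 endothelial nuclei of the aging matrix and 250 of the 663 of the first had no UMI of a macrophage, lymphocyte, dendritic, mural or stromal marker. Adipocyte markers were not part of that measure. Their sum over 8 genes exceeded that of the 10 endothelial markers in capillary (9504 against 6119 CPM), arterial (7791 against 6980 CPM) and interferon (9881 against 6151 CPM) nuclei of the first matrix, but not in its venous nuclei (7529 against 8638 CPM), and in the aging matrix it was 2565 against 12475 CPM in capillary and 1925 against 12543 CPM in venous nuclei. The part that RNA from other nuclei plays in these levels was not tested. For the first matrix the marker sum was 0.293% in adipocyte, 1.68% in mural, 1.964% in stromal and 1.03% in macrophage nuclei.

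Some genes stood well above that yardstick in other types. Cd34 was 99.4 CPM in stromal nuclei of the aging matrix (119, 119 and 71.3 CPM by suffix), 164% of its endothelial level (144 to 186), and 47.2 CPM in stromal nuclei of the first matrix (60.9 and 40.3 CPM, against 15.1 and 83.0 CPM in endothelial nuclei), 85.9% of the pooled level. Vcam1 in stromal nuclei was 44.3 CPM in the aging and 29.0 CPM in the first matrix, 129% and 186% of the pooled endothelial level. By library of the aging matrix it was 32.7, 72.8 and 37.0 CPM against 62.4, 24.4 and 36.7 CPM in endothelial nuclei, so that it was above the endothelial level by a clear margin in suffix 2 alone. By library of the first matrix it was 28.2 and 29.5 CPM against 1.51 (1 UMI) and 25.5 CPM, nearly level in suffix 2. Icam1 in stromal nuclei was 37.0 CPM and 11.3 CPM in the aging and first matrix, 65.9% and 34.9% of the pooled endothelial level. By library of the aging matrix it was 14.8, 23.8 and 63.4 CPM against 55.0, 31.4 and 76.7 CPM in endothelial nuclei. Ackr1 in Schwann nuclei of the aging matrix was 6.04 CPM, on 14 UMIs that all lay in suffix 1, where it was 7.41 CPM against 5.71 CPM in endothelial nuclei, and it had 0 UMIs in the 85 and 69 Schwann nuclei of suffixes 2 and 3. Among the clusters and gates of the first matrix, Icam1 pooled over both libraries was highest in the cluster with raised T lymphocyte markers. It was 55.9 CPM there (13.6 and 80.3 CPM by suffix), and the cluster also carried B lymphocyte and dendritic markers. Sub-clusters did not keep that rank, with 59.9 CPM in capillary sub-cluster 0 and 56.1 CPM in lymphatic sub-cluster 3. Nor did suffix 1, where venous nuclei had 69.2 CPM (4 UMIs) and all endothelial nuclei 24.2 CPM (16 UMIs).

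Macrophage nuclei of the first matrix held the highest Vcam1 level of any type there, 81.4 and 114 CPM in suffixes 1 and 2, 688% of the pooled endothelial level (461 to 1074). Within the libraries the endothelial levels were 1.51 CPM (1 UMI) and 25.5 CPM, so that the excess was smaller in suffix 2, which held 24 of the 25 endothelial UMIs. The level was 146 CPM in the larger macrophage cluster of 882 nuclei and 29.9 CPM in the smaller of 611. Vwf, by contrast an endothelial and megakaryocyte gene, also appeared in these nuclei at 30.1 CPM, 53.0% of its endothelial level, with 1 UMI in suffix 1 and 139 UMIs in suffix 2. The pooled share was above that of either library taken alone. In suffix 1 Vwf was 1.11 CPM against 9.07 CPM in endothelial nuclei. The 102 macrophage nuclei with a Vwf UMI had 3174 CPM of summed macrophage markers and 49.7 CPM of summed endothelial markers (22 UMIs, 11 of them Pecam1), compared to 2753 and 69.7 CPM in macrophage nuclei without one. They were also deeper (median 4159 against 2357 UMIs). In endothelial nuclei the same sums were 256 and 6585 CPM. In the aging matrix, Vcam1 in 329 macrophage nuclei was 34.0 CPM and Vwf 11.9 CPM (7 UMIs), 99.2% and 24.8% of the endothelial level, where the marker sum was 27.5%. Sele in adipocyte nuclei of the first matrix, 41 UMIs, all lay in suffix 1 (0.580 CPM), and no Sele UMI was found in 4318 adipocyte nuclei of suffix 2.

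**Figure D4:**
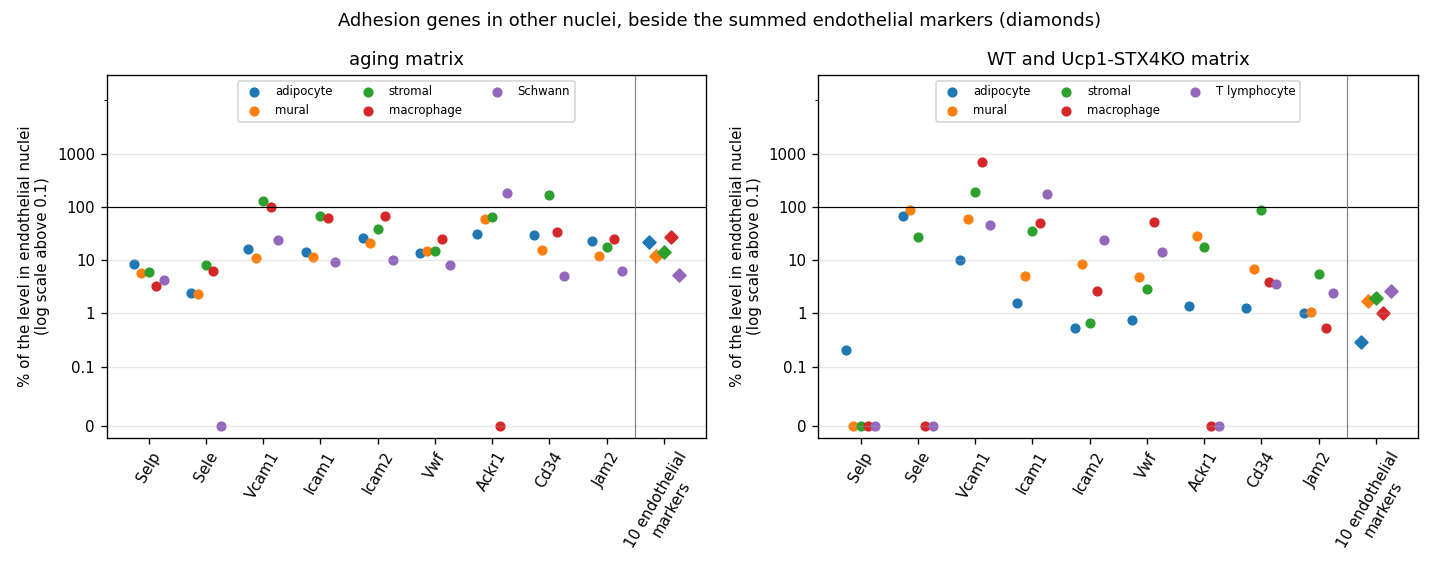
Level of each adhesion gene in other nuclei as a percentage of its level in endothelial nuclei (circles, logarithmic above 0.1%), beside the same percentage for the 10 summed endothelial markers (diamonds), for the aging matrix (left) and the WT and Ucp1-STX4KO matrix (right). Vcam1 in macrophage and stromal nuclei and Cd34 in stromal nuclei stand far above the diamonds, and Jam2 lies near them in the aging matrix.

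Ordered over all types of at least 50 nuclei in the aging matrix, venous nuclei ranked first for 7 of the 9 genes. The shares of all genes with such a rank or without overlap are not given here, so both are descriptions. The exceptions were Cd34, highest in stromal nuclei (99.4 CPM) with venous nuclei next (94.5 CPM) and overlapping library ranges, and Icam2, where arterial (42.9 CPM) and venous (41.7 CPM) nuclei overlapped. The venous library range stood clear of the second type for Vwf and Ackr1. For Selp it overlapped that of interferon nuclei (140 to 1028 against 7.58 to 260 CPM), for Jam2 likewise, and for Sele, Vcam1 and Icam1 that of the 64 lymphatic nuclei.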

How the data were processed

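The authors aligned reads to mm10 with Cell Ranger (version 6.1.2, forced cell number) and deposited UMI counts, unnormalized, per gene and barcode in 2 pooled matrices; their Seurat version was 4.1.0. Here nuclei with at least 200 UMIs and 100 genes were kept, each library was normalized with sctransform, libraries were integrated by anchors and clustered at resolution 0.3 (Seurat 5.3.0, R 4.3.3), with the adhesion and cascade genes withheld from the features. Clusters were named from marker lists (at least 3 markers raised 2-fold). An endothelial nucleus was gated to the type whose markers, with at least 2 UMIs over 2 genes, were highest relative to their endothelial mean. UMIs were summed per group. No doublet caller was run. Genes named are the 9 members, genes of the lists, and the 3 most alike to each member. Members and lists were chosen with earlier results of these data known, and the gate minimum after the files were seen. The ratio test was run on simulated counts drawn independently for each gene. These do not carry the gathering of UMIs in few nuclei seen here, so the intervals were not tested for it. Because suffixes are not tied to samples, no sample was assigned and genotypes and ages were not compared. Alternatives (resolution 0.8, the stated range of up to 2000 UMIs and 3000 genes, nuclei without other markers, a stricter gate, sub-clusters, single libraries, Mantel-Haenszel weights, mean CPM per nucleus) are given at the end.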

Additional observations from a re-analysis of the deposited data

How the results depend on the processing

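In the aging matrix the count of genes higher in endothelial than in other nuclei, 8, and in venous than in capillary nuclei, 6, stayed within 1.5 times under each alternative run (6 to 9 and 5 to 7), among them, added after seeing the data, each library left out and nuclei thinned to 1000 UMIs. The stated UMI and gene range gave 4 (from 8) in endothelial nuclei of the WT and Ucp1-STX4KO matrix, 1 (from 3) in its venous nuclei (there it also removes the whole of suffix 1, as 0 of 11201 barcodes fall in it), and 0 in its arterial and interferon nuclei and in both types of the aging matrix. Without marker UMIs of other types the counts were 1 for venous, 0 for arterial and 0 for interferon nuclei of the first matrix, and 1 and 0 for arterial and interferon nuclei of the aging matrix. The stricter gate gave 5 for venous and 0 for interferon nuclei of the first matrix and 3 for interferon nuclei of the aging matrix. Sub-clusters gave 0 for arterial nuclei of the first matrix and 0 for interferon nuclei of the aging matrix, and no value for venous and interferon nuclei of the first. Suffix 1 alone gave 1 venous call (Icam2), 0 arterial and 0 interferon calls in the first matrix and 5 interferon calls in the aging matrix. Suffix 2 alone gave 0 arterial and 0 interferon calls in the first matrix, and suffix 3 alone 0 arterial calls in the aging matrix. Leaving out suffix 1 or 2 of the aging matrix gave 1 arterial call each, and leaving out suffixes 1, 2 and 3 gave 0, 3 and 3 interferon calls. Mantel-Haenszel weighting gave 3 interferon calls in the aging matrix. Mean CPM per nucleus gave 2 arterial and 0 interferon calls in the first matrix, and 1 arterial and 0 interferon calls in the aging matrix. Shares of all genes called are given for the main pooled runs only. The counts under the alternatives lack that comparison and are descriptions.

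Called ratios crossed 1 in 6 cases, and the cause was not tested. Vcam1 in endothelial against other nuclei of the first matrix was 0.497 in the stated range and 0.672 in suffix 1 alone. Vwf in interferon nuclei of the first matrix was 0 in the stated range. Without marker UMIs of other types, Icam2 in arterial nuclei of the first matrix was 0.971 and Vcam1 in arterial nuclei of the aging matrix 0.465. Vcam1 in interferon nuclei of the aging matrix was 0.681 by sub-clusters. Among venous ratios of the aging matrix, Selp ranged from 16.9 to 95.6 and Ackr1 from 2.01, where its call was lost without marker UMIs of other types, to 29.1. By sub-clusters the venous ratios of Sele, Vcam1, Icam1 and Vwf were larger than by gate as well. Depth limits the first matrix, where 1 UMI was worth 0.625 CPM over all endothelial nuclei. Gates of the same library were compared within it, by single libraries and by Mantel-Haenszel weights (6 venous and 2 arterial calls in the aging matrix, 4 venous, 1 arterial and 1 interferon call in the first). Between genotypes or ages no paired analysis was possible because there was 1 library per condition and the suffixes are not tied to samples.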
